A study of Mus musculus with 12 samples.

Results

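Parathyroid hormone (PTH) was set against vehicle in wild-type Ocy454 cells, a conditionally immortalised line of mouse bone cells that resemble osteocytes, which lie within bone matrix. The members are the 6 libraries of these groups, out of 12 in the series, and the genes are the 11775 with a symbol and a value in each of the 6 libraries. The other 6 libraries, from cells given an inhibitor of focal adhesion kinase and from cells with a PDE8A deletion, were not used. All 6 libraries come from total RNA of 1 cell line with the genotype given as WT. There were 3 libraries labelled vehicle, whose value columns name DMSO, and 3 labelled PTH, and the labels do not state whether the PTH cells also received DMSO, which PTH peptide was used, or its dose and time. The comparison asks which transcripts follow PTH in these cells.

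PTH acts on osteocytes and osteoblasts through a G-protein-coupled receptor that raises cyclic AMP, activates protein kinase A and also couples to phospholipase C. In bone it is known for lowering sclerostin, the Wnt antagonist of osteocytes, and for raising RANKL, the cytokine that drives osteoclast formation. It is also known to change local cytokines, growth factors and matrix enzymes, so that the hormone's signal passes to neighbouring cells. The genes of sclerostin and RANKL, Sost and Tnfsf11, were not among the 11775 genes, and neither was the osteocyte marker Mepe.

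Levels are normalised estimated counts, that is, estimated counts divided by a scaling factor for each library, and changes are log2 fold changes of the value plus 1, PTH against vehicle, with their standard error (SE). The libraries held 27754786 to 35752975 estimated counts in these genes, and the lowest estimated count of any gene in any library was 11, so a gene that is off in vehicle cells cannot appear. Values are given in the order of libraries 1, 2 and 3. Vehicle library 1 stood apart. The SD over genes of its log2 difference from vehicle libraries 2 and 3 was 0.727 and 0.743, against 0.270 between those 2 libraries and 0.344 to 0.373 among the PTH libraries. Of 21 osteocyte and 16 osteoblast marker genes, 14 and 15 were measured, among them Dmp1, Phex, Runx2, Sp7, Col1a1 and Alpl. Of the markers of other cell types, 0 of 6 adipocyte, 1 of 7 chondrocyte, 2 of 8 macrophage and osteoclast, 1 of 6 endothelial and 2 of 6 muscle genes were measured. In bulk RNA, fewer cells of a type and less RNA per cell cannot be told apart. The share of counts from mitochondrial genes was 3.87% to 5.17% in vehicle and 4.50% to 4.80% in PTH libraries.

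PTH raised more genes than it lowered. A gene was called at a limma adjusted p below 0.05 and at least a 2-fold change, and 337 genes rose (2.86% of 11775) and 119 fell (1.01%), together 456 (3.87%). The median over all genes was -0.0034. Scaling every library to the same total moved that median to -0.12 and the split to 293 higher and 175 lower, so that the share of higher genes among those called went from 73.9% to 62.6%. Without vehicle library 1, 614 genes passed (5.21%), of which 375 rose (3.18%) and 239 fell (2.03%). Without vehicle library 2, 283 rose and 65 fell, and without PTH library 1, 2 or 3 the counts were 211 and 41, 210 and 35, and 185 and 34. A set of 200 genes (1.7%) passed both thresholds with all 6 libraries and again in each of 6 runs that left out 1 library, 174 of them higher (1.48%) and 26 lower (0.221%). These are termed stable calls. Their limma adjusted p lay between 8.26e-05 and 0.012. The choice of these genes favours those whose groups do not overlap, and in all 200 the groups did not. Over all 11775 genes the groups of 4225 (35.9%) did not overlap, so such a gap by itself is common. In 118 of the 174 stable increases, vehicle library 1 lay beyond the mean of vehicle libraries 2 and 3, away from PTH. Changes of those 118 are smaller without it, and those of the other stable increases are not. Without vehicle library 1 the change of Wnt4 went from 4.49 to 4.10, and that of Il11 from 3.31 to 3.68. With genes divided into 4 sets of nearly equal size by mean level, 2.14% of the lowest set and 3.97% of the highest set rose, while 1.33% and 0.577% fell. A run without 1 library rests on fewer values, and several calls described here were lost in such runs at nearly the same fold change.

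**Figure D1:**
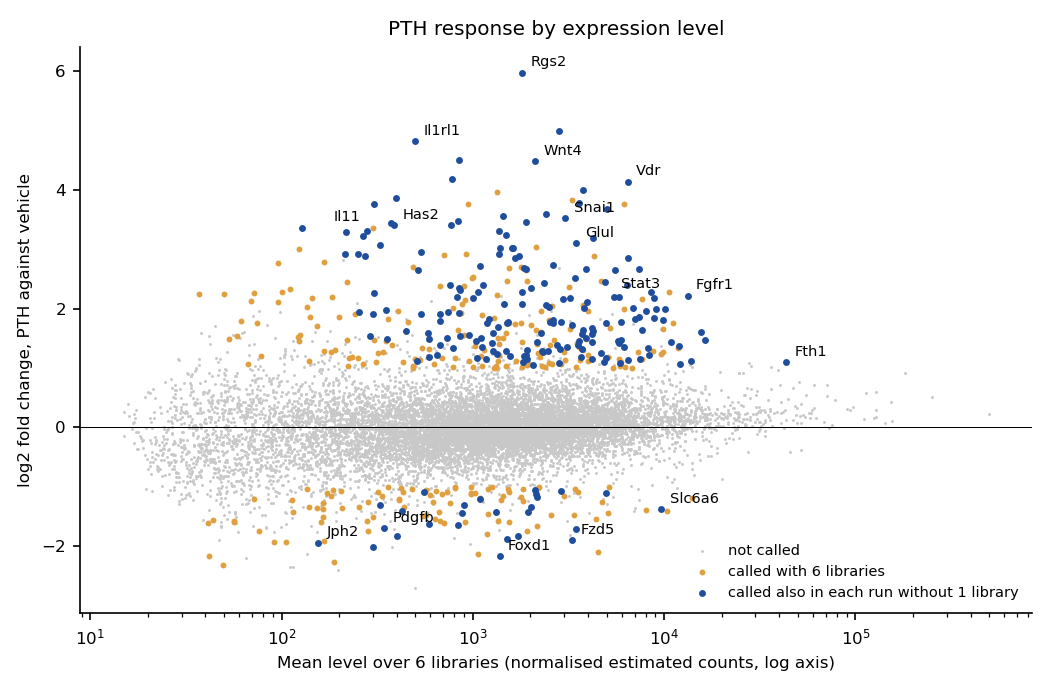
Each point is 1 of 11775 genes, placed by its mean level over the 6 libraries (x axis, normalised estimated counts, log axis) and its log2 fold change, PTH against vehicle (y axis). The 200 blue genes, called with all 6 libraries and in each run without 1 library, hold 174 increases and 26 decreases, and the orange genes, called with all 6 libraries but not in every such run, fill both sides.

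A cyclic AMP response element, the palindrome to which the factor CREB binds, stood near the start of a few of the stable calls. RefSeq promoter windows of GRCm38.p6 (250 bases before to 50 after a start) were at hand for 154 of the 200 genes, and 77.6% of all genes tested had one. Because that is under 80%, motif shares were not compared between sets of genes. The full element TGACGTCA, searched on both strands, was in 1.79% of all 32851 mouse promoter windows, and its half-site TGACG, which lies within the full element, in 20.8%. Of the stable calls, 7 that rose had the full element in a window (Arl4d, Errfi1, Mcam, Zfp874b, Epha2, Clasp2 and Retreg1) and 1 that fell (Lmcd1). A gene can have several windows and was counted when any of them held the motif. Percentages are shares of single windows, so they are no measure for those counts. All 7 motifs searched are given with the number of the 154 genes that held them. These were 8 for the full element, 64 for its half-site, 12 for the AP-1 site TGANTCA (7.81% of all windows), 2 for the nuclear receptor site AAAGGTCA (1.51%), 112 for the GC box GGGCGG (35.7%), 16 for the TATA box TATAAA on the gene's strand (8.32%) and 20 for the STAT palindrome TTCNNNGAA (8.3%), and sites other than the TATA box were searched on both strands. The stretches shown are examples chosen from these genes. The first 4 stretches below are from genes that rose and the fifth from the gene that fell, with the full element in capitals. The sixth stretch is the 190 bases before the start of Cebpb, whose capitals mark 3 half-sites on either strand, and the last is from Socs3, whose capitals mark the only match to the palindrome bound by STAT factors, which was searched for after the values were seen.
Errfi1: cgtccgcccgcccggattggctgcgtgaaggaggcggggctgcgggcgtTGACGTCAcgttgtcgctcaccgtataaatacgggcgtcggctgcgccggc
Arl4d: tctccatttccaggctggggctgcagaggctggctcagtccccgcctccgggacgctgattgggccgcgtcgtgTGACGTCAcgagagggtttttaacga
Mcam: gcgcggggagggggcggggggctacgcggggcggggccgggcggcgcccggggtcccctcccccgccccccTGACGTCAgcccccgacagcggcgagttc
Epha2: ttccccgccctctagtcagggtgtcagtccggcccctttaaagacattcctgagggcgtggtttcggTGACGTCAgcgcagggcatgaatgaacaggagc
Lmcd1: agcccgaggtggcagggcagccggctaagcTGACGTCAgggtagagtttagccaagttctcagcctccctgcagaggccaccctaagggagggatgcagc
Cebpb: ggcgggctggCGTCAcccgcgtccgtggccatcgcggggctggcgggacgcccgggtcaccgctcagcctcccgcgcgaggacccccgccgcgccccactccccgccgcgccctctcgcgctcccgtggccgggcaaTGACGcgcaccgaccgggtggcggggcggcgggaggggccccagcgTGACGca
Socs3: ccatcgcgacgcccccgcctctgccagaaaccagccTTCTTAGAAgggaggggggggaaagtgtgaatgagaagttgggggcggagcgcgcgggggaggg
Their places in GRCm38.p6 are chr4:150854970-150855069 on the plus strand for Errfi1, chr11:101665441-101665540 on the plus strand for Arl4d, chr9:44134558-44134657 on the plus strand for Mcam, chr4:141301121-141301220 on the plus strand for Epha2, chr6:112273598-112273697 on the plus strand for Lmcd1, chr2:167688725-167688914 on the plus strand for Cebpb and chr11:117969457-117969556 on the minus strand for Socs3. Counted from the RefSeq start on which each window was built, the full element began at -51 in Errfi1, -26 in Arl4d, -29 in Mcam, -33 in Epha2 and -130 in Lmcd1. The half-sites of Cebpb began at -180, -53 and -7, and the STAT palindrome of Socs3 at -154. The RefSeq start of Socs3 lies inside the gene bounds given for it here. Levels of Errfi1 were 2505, 1097 and 1251 under vehicle and 9253, 9019 and 10106 under PTH, a log2 fold change of 2.65 ± 0.29. Levels of Lmcd1, which also holds the full element, were 787, 737 and 735 under vehicle and 379, 371 and 316 under PTH, a change of -1.09 ± 0.14. A match is a description of the letters in this window and does not show that a factor binds there. The genes with the full element were singled out after their values were seen.

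Several cytokine signalling genes rose, among them genes of the system that signals through the shared receptor subunit gp130. Of 49 measured cytokine, chemokine and receptor genes, 14 rose (28.6%, against 2.86% of all genes), 1 fell and 34 did not pass, with a median of 0.46, or 0.34 after scaling to the same total. Of the 14, 9 were stable calls. The number that rose was 10 to 14 in the runs that left out 1 library. The lists, here and below, were chosen with earlier results of these data known, so their shares beside those of all genes are a description only. Il11, the gene of a cytokine of the interleukin 6 family that is made by bone cells, lies on chromosome 7 from 4772373 to 4782859 on the minus strand in GRCm38. Its levels were 80.4, 37.3 and 36.3 under vehicle and 478, 324 and 723 under PTH. Every PTH library was higher than every vehicle library, and the log2 fold change was 3.31 ± 0.42 (limma adjusted p = 0.00533). Clcf1, a cytokine gene of the same family, was at 577, 417 and 465 under vehicle and 1359, 1361 and 1521 under PTH (1.55 ± 0.16, limma adjusted p = 0.00198). Lif, another cytokine gene of this family, did not separate, with 1742, 537 and 431 under vehicle and 821, 751 and 709.6 under PTH, and its highest value was in vehicle library 1.

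The receptor side of the same system was uneven. Osmr, which pairs with gp130 to bind oncostatin M, was at 876, 761 and 581 under vehicle and 3587, 4148 and 4126 under PTH, so that the lowest PTH library was far above the highest vehicle library (2.43 ± 0.17, limma adjusted p = 0.000493). Il6st, the gene of gp130 itself, was at 8727, 6772 and 6301 under vehicle and 12466, 11675 and 12762 under PTH. Its groups also do not overlap, as in 35.9% of all genes, but its change of 0.77 ± 0.14 stayed under 2-fold (limma adjusted p = 0.0202). Lifr, the receptor partner for LIF, was at 2084, 5519.9 and 5273 under vehicle and 2254, 2453 and 3998 under PTH and its groups overlap. Il6ra, which binds interleukin 6, had a change of -1.14 ± 0.27 with 1001, 726 and 714 under vehicle and 429.7, 444 and 251 under PTH, and this decrease was lost on leaving out vehicle library 1, 2 or 3 (-0.99, -1.22 and -1.23), and on leaving out PTH library 1, 2 or 3 (-1.26, -1.29 and -0.88). The transcription factor gene Stat3, which carries gp130 signals to the nucleus, was at 3837, 2747 and 3095 under vehicle and 13849.9, 13594 and 15979 under PTH (2.18 ± 0.15, limma adjusted p = 0.000493). Stat3 was singled out after its values were seen.

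Genes of feedback inhibitors and of receptors for other cytokines rose as well. Socs3, whose protein blocks gp130 and its kinases, lies on chromosome 11 from 117966079 to 117970047 on the minus strand in GRCm38 and was at 876, 578 and 639 under vehicle and 4353, 4369.9 and 4958 under PTH, a change of 2.73 ± 0.17 (limma adjusted p = 0.000379). Cish, another member of that inhibitor family, was at 172, 233 and 256 under vehicle and 684, 637 and 701 under PTH (1.63 ± 0.19). In Cish vehicle library 1 was the lowest, and in Socs3 it was the highest of the vehicle libraries. Il4ra and Il13ra1 encode the chains that together form the receptor for interleukins 4 and 13. Il4ra was at 418, 312 and 318 under vehicle and 2494, 2603 and 3502 under PTH (3.03 ± 0.19) and Il13ra1 at 1119, 914 and 924 under vehicle and 3595, 3678 and 4779.9 under PTH (2.02 ± 0.15), and in both PTH library 3 was the highest. Il1rl1, the receptor gene for interleukin 33, was at 28.6, 27.7 and 42.7 under vehicle and 756, 867 and 1268 under PTH (4.82 ± 0.29), and the neutrophil chemokine gene Cxcl1 at 52.9, 33.5 and 67.2 under vehicle and 398, 379 and 358 under PTH (2.91 ± 0.29). Both were low in all vehicle libraries. Tnfrsf9, the gene of the costimulatory receptor 4-1BB, was at 181, 468 and 531 under vehicle and 3735, 3821 and 5654 under PTH (3.60 ± 0.41). Without vehicle library 1 the change of Tnfrsf9 was 3.11. Bcl3 and Nfkbiz encode nuclear relatives of the inhibitors of NF-kB. Bcl3 was at 60.3, 49.8 and 62.9 under vehicle and 413, 412 and 501 under PTH (2.92 ± 0.21). Nfkbiz was at 309, 385 and 396 under vehicle and 1491, 1608 and 1802 under PTH (2.17 ± 0.15). The kinase gene Pim1 was at 2673, 2079 and 2064 under vehicle and 5579.7, 5129 and 4639.6 under PTH (1.18 ± 0.14). Bcl3, Nfkbiz and Pim1 were singled out after their values were seen.

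**Figure D2:**
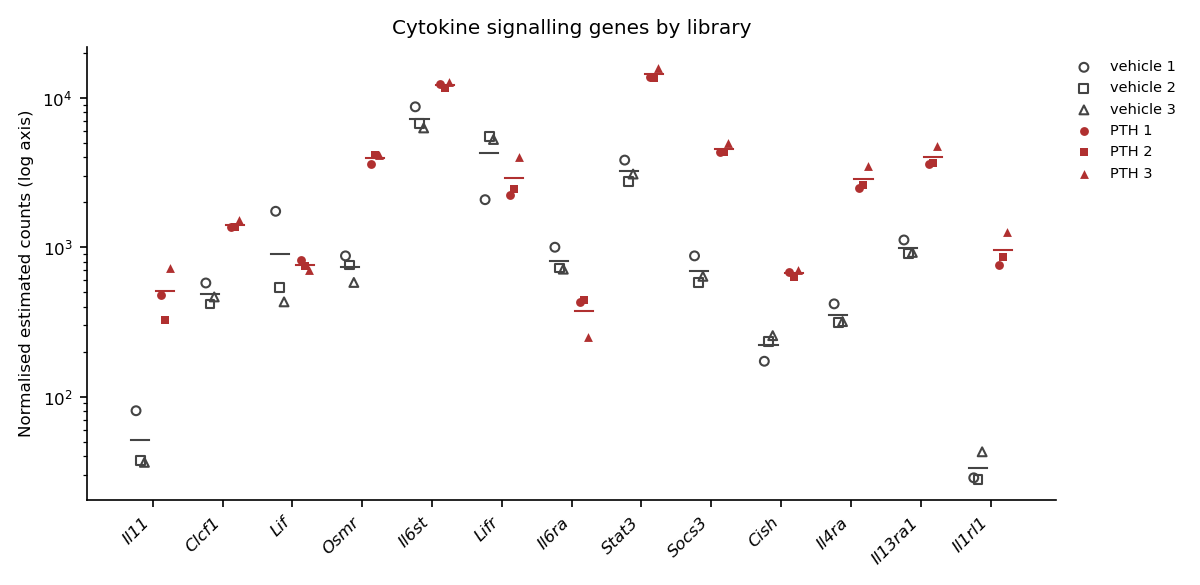
Levels of 13 cytokine signalling genes in each library (y axis, normalised estimated counts, log axis), with open symbols for vehicle, filled symbols for PTH and a bar at each group's mean. Il11, Osmr, Stat3, Socs3, Il4ra, Il13ra1 and Il1rl1 are separated, while the groups of Lif and Lifr overlap and Il6ra is lower under PTH.

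Wnt genes moved in both directions, and among the stable calls receptor genes did so. The ligand and antagonist genes called lower lost their calls in several runs that left out 1 library. Of 40 measured Wnt ligand, receptor, antagonist and TCF genes, 11 rose (27.5%), 4 fell (10.0%, against 1.01% of all genes) and 25 did not pass. The stable calls among them were 7 increases and 1 decrease, and without PTH library 1, 2 or 3 the counts were 8 and 1, 7 and 1, and 7 and 1. Without vehicle library 2 they were 10 and 1. The median of the list was 0.09, and -0.02 after scaling to the same total. Wnt4, a ligand known in bone for signals outside the beta-catenin route, lies on chromosome 4 from 137277489 to 137299726 on the plus strand in GRCm38 and was at 104, 196 and 282 under vehicle and 4297, 3491 and 4376 under PTH (4.49 ± 0.34). Its lowest PTH value was far above its highest vehicle value. Wnt10b, a ligand known to favour bone formation, was at 955, 1684 and 1955 under vehicle and 621, 719 and 589 under PTH (-1.19 ± 0.27), a call that was lost on leaving out vehicle library 2 or 3 (-1.09 and -0.98), and on leaving out PTH library 1, 2 or 3 (-1.17, -1.27 and -1.13). Wnt9a, a ligand gene active in joint formation, had 2.17 ± 0.34, and its call was lost on leaving out PTH library 2 or 3 (2.21 and 1.89).

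Receptor genes of the Frizzled family went opposite ways. Fzd1 was at 1765, 1989 and 2046 under vehicle and 8219, 7711 and 10904 under PTH, a change of 2.20 ± 0.15 (limma adjusted p = 0.000493), while Fzd5 was at 4536, 5513 and 5582 under vehicle and 1547, 1276 and 1359 under PTH, a change of -1.90 ± 0.13 (limma adjusted p = 0.000493). Each gene's groups stand well apart. Fzd8 was at 787, 1214 and 1264 under vehicle and 467, 436 and 412 under PTH (-1.28 ± 0.21), and its call was lost on leaving out vehicle library 2 (-1.19), and on leaving out PTH library 1, 2 or 3 (-1.33, -1.28 and -1.24). Among antagonists, the gene of the Wnt deacylase Notum was at 108, 144 and 175 under vehicle and 890.1, 752 and 1035 under PTH (2.65 ± 0.23) and Nkd2, whose protein blocks Dishevelled, at 121, 142 and 165 under vehicle and 572, 448 and 672 under PTH (1.97 ± 0.22). Kremen1, a receptor for the Dickkopf antagonists, was at 2169.8, 2079 and 2503 under vehicle and 5636, 5078 and 7725 under PTH (1.43 ± 0.17, limma adjusted p = 0.00442). All 3 of these antagonist genes were higher in every PTH library. Nkd1, the relative of Nkd2, had a change of -1.01 ± 0.18 in the other direction, and its call was lost on leaving out vehicle library 1 or 2 (-0.97 and -0.93), and on leaving out PTH library 1, 2 or 3 (-0.94, -1.05 and -1.02). The antagonist gene Dkk3 had 2.70 ± 0.56, which was 1.97 without vehicle library 1, and its call was lost on leaving out PTH library 1, 2 or 3 (2.68, 2.75 and 2.66). Tcf7l1 and Tcf7l2 encode nuclear factors that bind beta-catenin. Tcf7l1 was at 816, 1280.2 and 1353 under vehicle and 3426, 3317 and 3426 under PTH (1.59 ± 0.20). Tcf7l2 was at 786, 706 and 691 under vehicle and 1601, 1569 and 1669 under PTH (1.15 ± 0.11). Lef1, of the same factor family, had 2.93 ± 0.45 with 95.2, 284 and 325 under vehicle and 1381, 1453 and 1960.5 under PTH, and its call was lost on leaving out PTH library 1, 2 or 3 (3.02, 2.99 and 2.77). In Wnt4, Lef1, Dkk3 and Wnt10b vehicle library 1 was the lowest of the vehicle libraries.

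Genes of activin and TGF-beta signalling rose at the level of ligand, receptors and ubiquitin ligase. Of 45 measured genes of the BMP, activin and TGF-beta system, 7 rose (15.6%) and 38 did not pass, with 4 to 7 increases in the runs without 1 library and a median of 0.19. The 4 stable calls were Inhba, Tgfbr3, Tgfbr1 and Smurf2. Inhba encodes the subunit of activin A and was at 1591, 1403 and 1521 under vehicle and 5599.9, 5438 and 7387 under PTH (2.02 ± 0.14). Tgfbr1, the type I receptor kinase gene for TGF-beta, was at 2336, 1661 and 1776 under vehicle and 5072, 5005 and 5564 under PTH (1.45 ± 0.15, limma adjusted p = 0.0021), and Tgfbr3, the co-receptor betaglycan that presents TGF-beta and binds inhibin, at 1245, 1376 and 1269 under vehicle and 4453, 4192 and 4722 under PTH (1.78 ± 0.10, limma adjusted p = 0.00033). The spread within each group was small beside the gap between groups. Smurf2, a ubiquitin ligase that lowers Smad proteins and receptors, was at 5535, 4649 and 4808 under vehicle and 11962, 11636 and 11281 under PTH (1.22 ± 0.10). The ligand gene Tgfb1 was at 2706, 7153 and 7455 under vehicle and 13359.8, 12384 and 14850.2 under PTH, with a low vehicle library 1, and its change of 1.36 ± 0.37 did not pass (limma adjusted p = 0.0771). Inhbb, the gene of the other activin subunit, had 2.46 ± 0.46, and its call was lost on leaving out PTH library 1, 2 or 3 (2.47, 2.58 and 2.34). Tgif1, a corepressor of Smad proteins that was singled out after its values were seen, was at 1256, 1109.9 and 976 under vehicle and 2839.6, 2795 and 2547 under PTH (1.30 ± 0.13).

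A few growth factor genes changed. Of 32 measured secreted growth factor genes 4 rose (12.5%), 2 fell (6.25%) and 26 did not pass, and 2 rose and 1 fell without PTH library 1, 2 or 3. The stable calls were Nrg1, Vegfa and Pdgfb. Nrg1, a ligand of ErbB receptors, lies on chromosome 8 from 31814551 to 32884029 on the minus strand in GRCm38 and was at 79.3, 111 and 126 under vehicle and 544, 428 and 535 under PTH (2.26 ± 0.24, limma adjusted p = 0.00234). Vegfa, the vascular growth factor gene, was at 8379.8, 8512 and 9330.1 under vehicle and 23513, 24794 and 23941 under PTH (1.46 ± 0.09). Pdgfb, a platelet-derived growth factor gene, was at 517, 534 and 523 under vehicle and 138, 221 and 136 under PTH (-1.70 ± 0.23, limma adjusted p = 0.00702), and the vehicle values lay close together. Its relative Pdgfa had -1.79 ± 0.28 with 1102, 2157 and 2296 under vehicle and 532, 535 and 462 under PTH, and its call was lost on leaving out PTH library 1, 2 or 3 (-1.82, -1.83 and -1.72). Fgf7 had 2.47 ± 0.37, and its call was lost on leaving out PTH library 1, 2 or 3 (2.46, 2.46 and 2.50). Among 23 receptor tyrosine kinase genes outside the Eph family, 1 rose (4.35%, against 2.86% of all genes) and 22 did not pass. It was Fgfr1, the gene of a receptor for fibroblast growth factors, at 3303, 5234 and 5859.8 under vehicle and 21229, 20428 and 23555 under PTH (2.22 ± 0.21, limma adjusted p = 0.00167). The co-receptor gene Gfra1, which binds glial cell line-derived factors, was at 62.4, 30.6 and 35.2 under vehicle and 559, 506 and 632 under PTH (3.76 ± 0.31). Its partner kinase gene Ret was not among the 11775 genes.

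MAP kinase cascades carry growth factor signals through kinases, scaffolds and phosphatases. Of 61 measured genes of kinases of these cascades and their scaffolds, 2 rose (3.28%, against 2.86% of all genes) and 59 did not pass. Ksr1, a scaffold that brings the kinases of the cascade together, was at 335, 382 and 484 under vehicle and 2699, 2471 and 3552 under PTH (2.86 ± 0.20, limma adjusted p = 0.000493). Errfi1, whose protein inhibits EGF receptors and whose promoter holds the full element, rose by a log2 fold change of 2.65 ± 0.29. Of 23 measured MAP kinase phosphatase and Sprouty genes, 3 rose and 20 did not pass, while 6 had an unadjusted p below 0.05 in the lower direction. The share of all genes with such an unadjusted p was not counted. Dusp5, a nuclear ERK phosphatase gene, was at 312, 266 and 277 under vehicle and 1317, 1509 and 1451 under PTH (2.32 ± 0.14). Dusp10, whose protein acts on p38 and JNK, was at 413, 571 and 641 under vehicle and 1764, 1903 and 1986 under PTH (1.82 ± 0.18). Dusp1 had 1.56 ± 0.22, and its call was lost on leaving out PTH library 1, 2 or 3 (1.52, 1.54 and 1.62). Mapkapk3, a kinase gene downstream of p38, was at 147, 173 and 128 under vehicle and 452, 433 and 415 under PTH (1.54 ± 0.19).

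**Figure D3:**
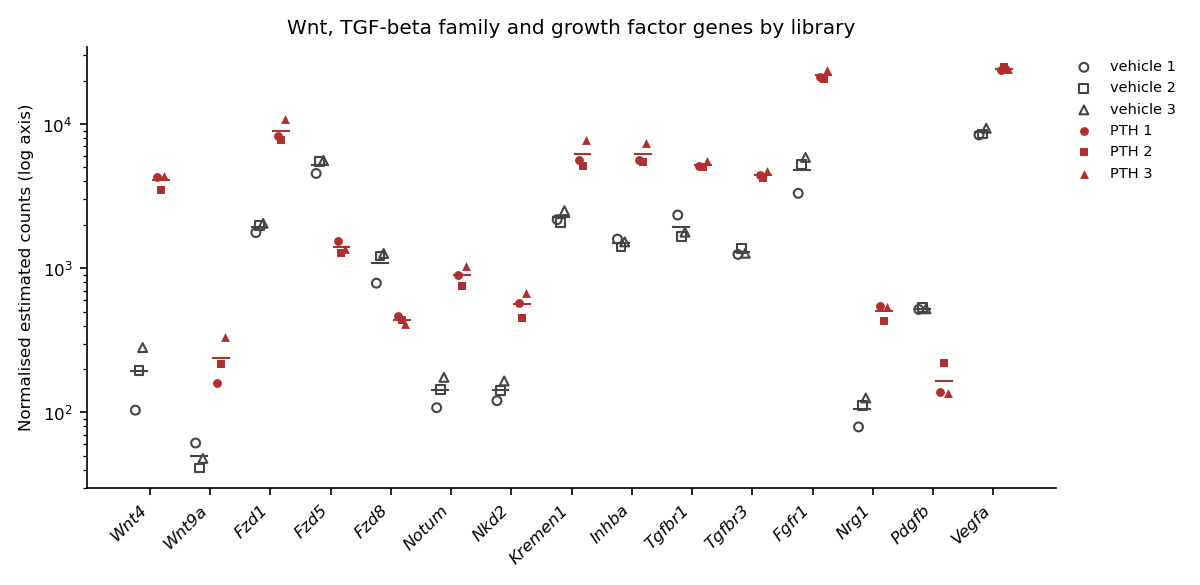
Levels of 15 Wnt, TGF-beta family and growth factor genes in each library (y axis, normalised estimated counts, log axis), with open symbols for vehicle, filled symbols for PTH and a bar at each group's mean. Fzd1 is higher and Fzd5 lower under PTH, Pdgfb is lower, and the PTH libraries of Wnt4, Inhba, Tgfbr3, Fgfr1 and Vegfa all lie above the vehicle libraries.

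Matrix genes outside the collagens and proteases also rose, several of them for hyaluronan and cell-surface proteoglycans. Of 61 measured genes for hyaluronan and proteoglycan synthesis, 10 rose (16.4%), 3 fell (4.92%) and 48 did not pass. Without PTH library 1, 2 or 3 the increases numbered 6, 6 and 4 and the decreases 0. Decreases also numbered 0 without vehicle library 2, and 4 of the increases were stable calls. Has2, the gene of a hyaluronan synthase at the plasma membrane, lies on chromosome 15 from 56665627 to 56694539 on the minus strand in GRCm38 and was at 42.3, 79.4 and 80.0 under vehicle and 601, 602 and 926 under PTH (3.41 ± 0.32, limma adjusted p = 0.00158). Ugdh, the enzyme gene for the glucuronic acid precursor of hyaluronan, was at 3356, 5982 and 6342 under vehicle and 11549, 11564 and 13741 under PTH (1.28 ± 0.24), and its call was lost on leaving out vehicle library 1 (0.99), and on leaving out PTH library 1, 2 or 3 (1.32, 1.32 and 1.20). Uap1, the enzyme gene for the N-acetylglucosamine precursor, was at 3466, 3879 and 4125 under vehicle and 13102, 12473 and 15910.1 under PTH (1.85 ± 0.13) and was singled out after its values were seen. The syndecan genes Sdc1 and Sdc4 encode heparan sulphate proteoglycans of the cell surface. Sdc1 was at 2175, 3728 and 3885 under vehicle and 10422, 10590.0 and 13803 under PTH (1.86 ± 0.24) and Sdc4 at 3231, 3913 and 4083 under vehicle and 11466, 11612 and 11895 under PTH (1.65 ± 0.12, limma adjusted p = 0.000493). Hs2st1, a sulphotransferase gene for heparan sulphate, was at 2413, 2669 and 2757 under vehicle and 5765, 5424 and 6138 under PTH (1.14 ± 0.10). Ext1, a polymerase gene of heparan sulphate, had 1.39 ± 0.19, and its call was lost on leaving out PTH library 3 (1.30).

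Of 20 measured genes of the plasminogen system, serpins and coagulation, 4 rose (20.0%) and 16 did not pass, and the 4 were all stable calls. Plau, the gene of the protease urokinase, was at 331, 353 and 403 under vehicle and 1628, 1956 and 1685 under PTH (2.27 ± 0.14), and Plaur, the gene of its receptor on the cell surface, at 1250.5, 924 and 909 under vehicle and 5306, 5493 and 6727 under PTH (2.51 ± 0.17, limma adjusted p = 0.000445). The protease and its receptor were thus both higher in each PTH library. Thbd, the gene of the thrombin receptor thrombomodulin, was at 3277, 3354 and 3276 under vehicle and 12510.0, 13096 and 12799 under PTH (1.95 ± 0.09, limma adjusted p = 0.000152), with very little spread in either group. Lrp1, an endocytic receptor gene that clears protease complexes, was at 6071, 8413 and 8885 under vehicle and 21327, 20974 and 28411 under PTH (1.60 ± 0.19). Of 42 measured basement membrane and adhesive glycoprotein genes, 3 rose (7.14%, against 2.86% of all genes) and 39 did not pass, with 5 increases without vehicle library 1. The stable calls Smoc2 and Thbs2 encode a calcium-binding matricellular protein and thrombospondin 2. Smoc2 was at 49.7, 75.6 and 82.1 under vehicle and 550.4, 492 and 701 under PTH (3.07 ± 0.27) and Thbs2 at 1831, 2159 and 2321 under vehicle and 6245, 6169 and 6383 under PTH (1.58 ± 0.12). C1qtnf1, a secreted protein gene of the C1q family, was at 98.4, 137 and 158 under vehicle and 1446, 1066 and 1719 under PTH (3.42 ± 0.25). Of 17 measured integrin genes 3 rose (17.6%, against 2.86% of all genes) and 14 did not pass. The increases numbered 1 without vehicle library 2 and 0 without PTH library 1, 2 or 3. The largest of them, Itga11, was at 451, 1545 and 1415 under vehicle and 6837, 6355 and 9198 under PTH (2.89 ± 0.46), and its call was lost on leaving out PTH library 1, 2 or 3 (2.94, 2.99 and 2.73).

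Among receptors for lipids and contact signals a few genes changed strongly. Of 31 measured G-protein-coupled receptor genes in the list 6 rose (19.4%, against 2.86% of all genes), 1 fell (3.23%, against 1.01%) and 24 did not pass. The number that rose was 8 without vehicle library 1 and 2, 1 and 1 without PTH libraries 1, 2 and 3, and 1 was a stable call. It was S1pr1, the gene of a receptor for sphingosine 1-phosphate, at 221, 585 and 642 under vehicle and 7021, 6553 and 7440.0 under PTH (4.00 ± 0.38). Without vehicle library 1 the change of S1pr1 was 3.51. Sphk1, which encodes a kinase that makes this lipid and was singled out after its values were seen, was at 219, 148 and 230.4 under vehicle and 451, 498 and 476 under PTH (1.27 ± 0.21), and its call was lost on leaving out PTH library 1, 2 or 3 (1.31, 1.24 and 1.27). Of 51 measured guidance ligand and receptor genes 7 rose (13.7%), 1 fell and 43 did not pass, with 3 to 6 increases in the runs without 1 library. The stable calls were Flrt2, a ligand gene for Unc5 receptors, at 324, 534 and 669 under vehicle and 2969.8, 2709.7 and 3847 under PTH (2.69 ± 0.28), and the Eph receptor kinase genes Ephb2 and Epha2. Ephb2 was at 222, 459 and 424 under vehicle and 1719.9, 1623 and 2305 under PTH (2.40 ± 0.30, limma adjusted p = 0.00481) and Epha2 at 2052, 1466 and 1705 under vehicle and 4416, 4765 and 4138 under PTH (1.36 ± 0.15). Ligand genes of Eph receptors were called in either direction. Efnb2 had 1.09 ± 0.22, a call that was lost on leaving out vehicle library 2 or 3 (1.05 and 0.98), and on leaving out PTH library 1, 2 or 3 (1.18, 1.15 and 0.95). Efnb1 was at 1156, 1823 and 2130.4 under vehicle and 770.5, 783 and 919.6 under PTH, a lower call that was lost on leaving out vehicle library 2 or 3 (-0.93 and -0.82), and on leaving out PTH library 1, 2 or 3 (-0.96, -0.97 and -1.09). Notch1, a receptor gene, was the only one of 27 measured Notch pathway genes to rise (3.70%, against 2.86% of all genes), and 26 did not pass. It was at 798, 620.0 and 638 under vehicle and 1848, 1761 and 1874 under PTH (1.42 ± 0.14). Without vehicle library 1, 2 other genes of that list fell.

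**Figure D4:**
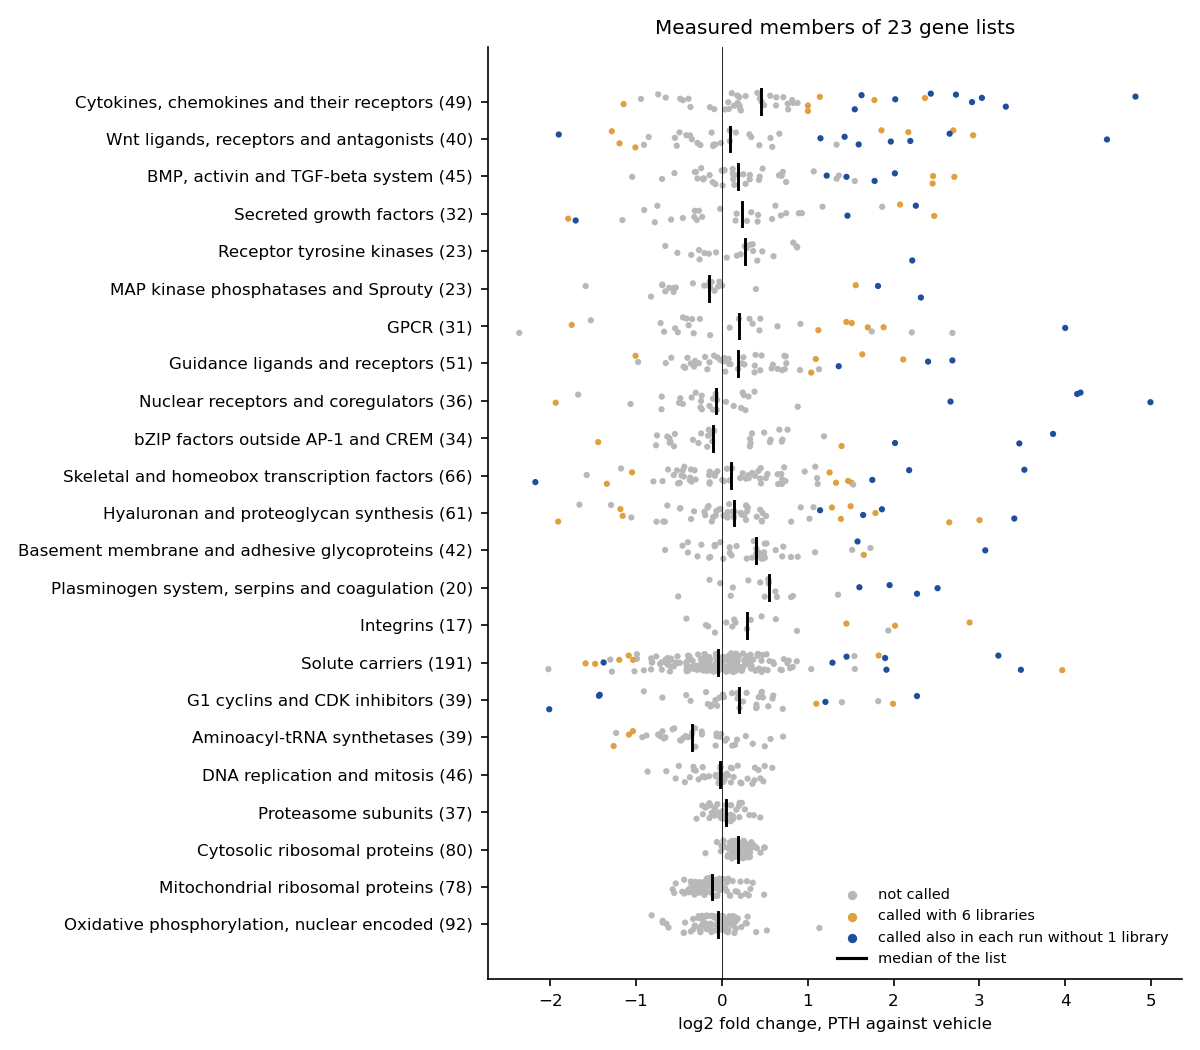
Each row is 1 of 23 gene lists with its number of measured members, each point a member's log2 fold change, PTH against vehicle (x axis), and the bar the list's median. Blue members were called with all 6 libraries and in each run without 1 library, and orange members with all 6 but not in every such run. Lists such as the proteasome subunits and cytosolic ribosomal proteins hold no coloured point.

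Several transcription factor genes known from mesenchymal cells and from acute responses rose. Of 66 measured skeletal and homeobox factor genes 7 rose (10.6%), 3 fell (4.55%) and 56 did not pass. The number that fell was 9 without vehicle library 1 and 1 without any other library, and the increases numbered 3 without PTH library 1, 2 or 3. Snai1, which encodes a repressor of epithelial genes, lies on chromosome 2 from 167538195 to 167542814 on the plus strand in GRCm38 and was at 366, 503 and 607 under vehicle and 4992, 5289.8 and 6485 under PTH (3.52 ± 0.21, limma adjusted p = 0.00033). Twist1, a mesenchymal factor gene that restrains osteoblast differentiation, was at 843, 1399 and 1298 under vehicle and 5364, 4971 and 5375 under PTH (2.18 ± 0.20), and Runx1, a relative of the osteoblast regulator Runx2, at 723, 693 and 627 under vehicle and 2198, 1869 and 2936 under PTH (1.75 ± 0.18). In all 3 the groups stand apart. Runx2 itself was at 1751, 4235 and 5203 under vehicle and 5185, 4749.9 and 4740.1 under PTH (0.53 ± 0.38), and its groups overlap. Foxd1, a forkhead factor gene, was at 2584, 2097 and 2102 under vehicle and 471, 563 and 467 under PTH (-2.17 ± 0.14), with every PTH value far below every vehicle value.

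Of 34 measured bZIP factor genes outside AP-1 and CREM, 4 rose (11.8%), 1 fell and 29 did not pass, and 3 of the increases were stable calls. Among these, Cebpb and Cebpd encode CCAAT-binding factors known from acute-phase and adipocyte programmes. Cebpb was at 3916, 2291 and 2217 under vehicle and 11183, 11244 and 10508 under PTH (2.02 ± 0.22). Cebpd was at 179, 416 and 412 under vehicle and 3286, 3682 and 3445 under PTH (3.47 ± 0.32, and 3.06 without vehicle library 1). Vehicle library 1 was the highest of its group in Cebpb and the lowest in Cebpd. Glis1, a Kruppel-like factor gene related to the Gli family, was at 51.8, 67.9 and 98.1 under vehicle and 1562, 1688 and 1585 under PTH (4.50 ± 0.25), and Eya1, a cofactor gene for homeobox proteins that was singled out after its values were seen, at 1936, 3326 and 3767 under vehicle and 14153, 13262 and 14907 under PTH (2.28 ± 0.24). Corepressor and cofactor genes were among those that fell. Cbfa2t3, a corepressor gene, was at 677, 510.0 and 696 under vehicle and 207, 217 and 115 under PTH (-1.84 ± 0.29, limma adjusted p = 0.012), and Lbh, a cofactor gene known from limb and heart development, at 1778, 3160.4 and 3222 under vehicle and 741, 766 and 718 under PTH (-1.82 ± 0.23). Klf4, the only one of 11 measured Kruppel-like factor genes in its list that was called, had -1.54 ± 0.25 with 4218, 7514 and 8117 under vehicle and 2263, 2346 and 1951 under PTH, and its call was lost on leaving out PTH library 1, 2 or 3 (-1.57, -1.60 and -1.47).

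Single enzyme and transporter genes for glutamine, glucose and purines were among the stable increases. Glul, the gene of glutamine synthetase, lies on chromosome 1 from 153899944 to 153909723 on the plus strand in GRCm38 and was at 542, 841 and 827 under vehicle and 6326, 6073 and 6273 under PTH (3.11 ± 0.18, limma adjusted p = 0.00033). Slc1a3, a glutamate transporter gene, was at 254, 224 and 192 under vehicle and 895, 676 and 982 under PTH (1.92 ± 0.20). Slc7a7, a transporter gene that exchanges dibasic and neutral amino acids, was at 34.9, 46.9 and 73.6 under vehicle and 556, 335 and 556 under PTH (3.22 ± 0.35). Both transporters were thus higher in each PTH library. Hk2, the gene of a hexokinase, which starts glycolysis, was at 2447, 2812 and 2785 under vehicle and 8645, 9223 and 9781 under PTH (1.78 ± 0.11). Pfkfb3 and Pfkfb4 encode enzymes that set the level of an activator of glycolysis. Pfkfb3 was at 1376, 1705 and 1842 under vehicle and 4219, 3874 and 4065 under PTH (1.31 ± 0.13). Pfkfb4 was at 212, 319 and 319 under vehicle and 881, 972 and 1349.5 under PTH (1.91 ± 0.24). Gpd2, the mitochondrial enzyme gene of the glycerol phosphate shuttle, was at 2069, 1768 and 1673 under vehicle and 5425, 5633 and 6133 under PTH (1.64 ± 0.12), and Pdk4, whose kinase switches off pyruvate dehydrogenase, at 866, 1206 and 1200.1 under vehicle and 5035, 4895 and 4586 under PTH (2.16 ± 0.15, limma adjusted p = 0.000526). Slc37a2, a sugar phosphate transporter gene of the endoplasmic reticulum, was at 151, 151 and 105 under vehicle and 1634, 1157 and 1807 under PTH (3.48 ± 0.24). Xdh, the gene of xanthine oxidoreductase, which makes urate from purines, was at 1009, 961 and 1218 under vehicle and 6291, 6327 and 7519 under PTH (2.66 ± 0.14, limma adjusted p = 0.000216). Slc28a1, a nucleoside uptake gene, was at 112, 112 and 157 under vehicle and 445, 495 and 475 under PTH (1.90 ± 0.21). Hk2, Pfkfb3, Pfkfb4, Gpd2 and Xdh were singled out after their values were seen.

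Of 191 measured solute carrier genes 8 rose (4.19%, against 2.86% of all genes), 6 fell (3.14%, against 1.01%) and 177 did not pass. The decreases numbered 4 without vehicle library 2 and 1, 1 and 2 without PTH libraries 1, 2 and 3. Slc23a2, a vitamin C transporter gene, was at 2716, 3145 and 3375 under vehicle and 8298, 7566 and 9425 under PTH (1.45 ± 0.13). Slc6a6, the taurine transporter gene, was the stable decrease, at 12163, 15080.5 and 14666 under vehicle and 5529, 5993 and 4633 under PTH (-1.38 ± 0.14, limma adjusted p = 0.00198). The neutral amino acid transporter genes Slc1a4, Slc6a9 and Slc7a5 were called lower, and each was high in vehicle library 1. Slc1a4 was at 1928, 1128 and 1069 under vehicle and 393, 452 and 481 under PTH, and its call was lost on leaving out PTH library 1, 2 or 3 (-1.50, -1.61 and -1.65). Slc6a9 was at 5903, 2699 and 2904 under vehicle and 1432, 1337 and 1122 under PTH, and its call was lost on leaving out PTH library 1, 2 or 3 (-1.55, -1.50 and -1.38). Slc7a5 was at 29588, 15177 and 14591 under vehicle and 7776, 9066 and 7757 under PTH, and its call was lost on leaving out vehicle library 1 or 2 (-0.86 and -1.34), and on leaving out PTH library 1, 2 or 3 (-1.16, -1.27 and -1.16). The vehicle values of the other 2 libraries lay above the PTH values in all 3 genes. Fth1, the gene of the iron store ferritin, was at 25248, 28993 and 28550.3 under vehicle and 59284, 55178 and 63107 under PTH (1.10 ± 0.10, limma adjusted p = 0.0014), while the iron exporter gene Slc40a1 had -1.08 ± 0.24, a call that was lost on leaving out vehicle library 1, 2 or 3 (-0.87, -1.21 and -1.17), and on leaving out PTH library 1, 2 or 3 (-1.21, -0.92 and -1.13).

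Some genes that make amino acids or load them onto tRNA were called lower. Of 39 measured aminoacyl-tRNA synthetase genes, 3 were called lower (7.69%) and 36 did not pass, with a median of -0.35, and of -0.27 without vehicle library 1, when the changes of all 3 stayed under 2-fold. Without PTH library 1, 2 or 3 the number called lower was 0, 1 and 0. The 3 were Yars1, Lars1 and Cars1. Yars1 was at 9565, 5423 and 5238 under vehicle and 2743, 2695 and 2674 under PTH, and its call was lost on leaving out vehicle library 1 (-0.98), and on leaving out PTH library 1, 2 or 3 (-1.27, -1.26 and -1.25). Lars1 was at 6746, 3957 and 3897 under vehicle and 2067, 2539 and 2088 under PTH, and its call was lost on leaving out vehicle library 1 or 2 (-0.82 and -1.21), and on leaving out PTH library 1, 2 or 3 (-1.03, -1.18 and -1.04). Cars1 was at 2811, 2446 and 2113 under vehicle and 1082, 1280.1 and 1216 under PTH, and its call was lost on leaving out vehicle library 1 (-0.93), and on leaving out PTH library 1 or 3 (-0.97 and -1.05). In these genes the PTH values lay below all vehicle values and vehicle library 1 was the highest. Of 28 measured genes for serine, one-carbon and amino-acid synthesis, 1 rose (Glul, 3.57%), 2 fell (7.14%, against 1.01% of all genes) and 25 did not pass. In the lower direction 12 had an unadjusted p below 0.05. How many of all genes had such an unadjusted p was not counted. The number that fell was 0 without PTH library 1 and 1 without vehicle library 1 or 2 or PTH library 3. Psph, an enzyme gene of serine synthesis, had -1.22 ± 0.22, and its call was lost on leaving out vehicle library 2 (-1.25), and on leaving out PTH library 1 or 3 (-1.10 and -1.17). Asns, the asparagine synthetase gene, was at 17187, 7240.3 and 6794 under vehicle and 3613, 4064 and 3385 under PTH (-1.36 ± 0.34, limma adjusted p = 0.0589) and was singled out after its values were seen. The glutathione-degrading enzyme gene Chac1 and the translation repressor gene Eif4ebp1 were stable decreases. Chac1 was at 1613, 1129 and 1083 under vehicle and 379, 505 and 333 under PTH (-1.65 ± 0.22) and Eif4ebp1, singled out after its values were seen, at 3745, 4066 and 3900.2 under vehicle and 2005, 1751 and 1842 under PTH (-1.07 ± 0.10). Sesn3, a gene of the sestrins, which respond to nutrients and stress, was at 1413, 1540.5 and 1449 under vehicle and 6679, 4712 and 8056 under PTH (2.11 ± 0.19), while its relative Sesn2 had -1.43 ± 0.27, a call that was lost on leaving out PTH library 1, 2 or 3 (-1.50, -1.46 and -1.33). Map1lc3b, the gene of the autophagosome protein LC3B, was at 8414, 8885 and 8814 under vehicle and 19552, 18070.4 and 19025 under PTH (1.12 ± 0.09). It was the only one of 63 measured lysosome and autophagy genes to rise (1.59%, against 2.86% of all genes), and the median of that list was 0.02.

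The genes of the kinase Cdk6 and of its partner cyclin changed while replication and mitosis genes did not pass. Of 39 measured genes in a list named for G1 cyclins, kinases and inhibitors, 4 rose (10.3%), 3 fell (7.69%) and 32 did not pass. Increases numbered 2 without vehicle library 2 or 3 or any 1 of the PTH libraries. Cdk6, a kinase gene that partners D-type cyclins, was at 443, 603 and 838 under vehicle and 2972, 2477 and 3452 under PTH (2.27 ± 0.25, limma adjusted p = 0.00266). Its partner cyclin gene Ccnd1 was at 2944, 2779 and 2749 under vehicle and 1086, 1181 and 911 under PTH (-1.42 ± 0.13), so that kinase and cyclin went opposite ways. E2f7, a repressor gene of the E2F family, was at 1035, 1153 and 1177 under vehicle and 2581, 2353 and 2847 under PTH (1.21 ± 0.12). Gadd45b, a stress-response gene, was at 2021, 1782 and 2014 under vehicle and 751, 767 and 639.9 under PTH (-1.43 ± 0.13, limma adjusted p = 0.00123), and Cdk5r1, which encodes an activator of the kinase Cdk5, at 558, 499 and 393 under vehicle and 116, 109.7 and 129 under PTH (-2.01 ± 0.20). With limma 0 of 46 measured DNA replication and mitosis genes were called, with 9 higher and 7 lower at an unadjusted p below 0.05 and a median of -0.02. A count over all genes at such an unadjusted p was not made, here or for the lists below.

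With limma 0 of 80 cytosolic ribosomal protein genes, 0 of 78 mitochondrial ribosomal protein genes, 0 of 92 nuclear genes of oxidative phosphorylation and 0 of 37 proteasome genes were called. At an unadjusted p below 0.05, 10 cytosolic ribosomal protein genes were higher and 0 lower, 2 and 8 mitochondrial ribosomal protein genes, 2 and 12 oxidative phosphorylation genes, and 1 and 0 proteasome genes. Their medians were 0.18, -0.12, -0.05 and 0.05, and 0.06, -0.24, -0.17 and -0.07 after scaling to the same total, where the median of all genes was -0.12.

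Several of the 26 stable decreases were picked for description after their values were seen. Of 84 measured genes of kinesins, dyneins and tubulins 1 rose and 1 fell (1.19%, against 1.01% of all genes). The decrease was that of Kif21b, a kinesin gene, at 2608, 2201 and 2357 under vehicle and 672, 676 and 589 under PTH (-1.88 ± 0.12). Jph2, whose junctophilin ties membranes to calcium stores, was at 272, 218 and 251 under vehicle and 57.2, 56.7 and 77.8 under PTH (-1.94 ± 0.24), and Nexn, the gene of the actin-binding protein nexilin, at 1031, 875 and 772 under vehicle and 379, 258 and 243 under PTH (-1.62 ± 0.22). Cmya5 and Fhl2 are known from cardiac and skeletal muscle. Cmya5 was at 593, 623 and 643 under vehicle and 288, 238 and 186 under PTH (-1.40 ± 0.20). Fhl2 was at 1522, 1518 and 1514 under vehicle and 694, 713 and 572 under PTH (-1.21 ± 0.13, limma adjusted p = 0.00247). The 3 vehicle values of Fhl2 lay close together. Of 71 measured ion channel genes 2 rose (2.82%, against 2.86% of all genes) and 1 fell (1.41%). It was Cacna1a, a calcium channel gene, at 437, 492 and 464 under vehicle and 188, 182 and 193 under PTH (-1.30 ± 0.16). Nuak1, a kinase gene of the AMPK family, was at 3800.0, 5846 and 6335 under vehicle and 1897, 1803 and 1154 under PTH (-1.72 ± 0.26). Among stable calls of guanine nucleotide exchange factor genes, Net1 was at 2761, 4134 and 4165 under vehicle and 14108, 13978 and 15046 under PTH (1.99 ± 0.17) and Arhgef19 at 505, 765 and 839.6 under vehicle and 2295, 2097 and 2704 under PTH (1.77 ± 0.21), while Arhgef17 was at 2856, 3083 and 3023 under vehicle and 1339.9, 1238 and 1385 under PTH (-1.18 ± 0.10) and Fgd3 at 1329.8, 1164 and 1365 under vehicle and 537, 532 and 360.2 under PTH (-1.45 ± 0.19). Of 6 muscle markers, 2 were measured and 0 of them were called with limma, with 0 higher and 1 lower at an unadjusted p below 0.05. Further stable decreases included Kctd15, Tacc2, Rflnb and Herpud1, at log2 fold changes of -1.34, -1.31, -1.13 and -1.11.

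Leaving out vehicle library 1 added 203 calls, 62 higher and 141 lower, while 411 of the 456 calls remained and 45 were lost. Of the 141 added decreases, vehicle library 1 was nearer to the PTH libraries than to the other vehicle libraries in 110 (78.0%), and it lay within the PTH range in 39. Of the 62 added increases the numbers were 28 (45.2%) and 6. A gene called only without that library is one in which it lay towards PTH or widened the vehicle spread. These counts thus follow largely from how the genes were chosen. In the stable calls, whose choice works the other way, vehicle library 1 was nearer to PTH in 0 of 174 increases and 0 of 26 decreases. Genes of bone mineralisation were among the added decreases. Of 27 measured genes for mineral, phosphate and pyrophosphate handling, 2 rose (7.41%, against 2.86% of all genes) and 25 did not pass with all libraries. Without vehicle library 1, 2 rose and 4 fell, when 2.03% of all genes fell, and the other runs had 0 to 4 increases. Osteocyte markers went from 2 higher of 14 to 2 higher and 4 lower, and their increases numbered 1, 1 and 0 without PTH libraries 1, 2 and 3. Of 15 measured osteoblast markers 15 did not pass with all libraries, 4 fell without vehicle library 1 and 2 rose without vehicle library 3. Smpd3, the gene of a sphingomyelinase needed for bone mineral, was at 862, 6926 and 8392 under vehicle and 1139, 959.6 and 1044 under PTH, with a change of -1.82 ± 0.80 and of -2.87 without vehicle library 1 (limma adjusted p = 6.24e-07). Phospho1, the gene of a phosphatase of matrix vesicles, was at 1813, 9064 and 10468 under vehicle and 2568, 2277 and 2407 under PTH, with -1.20 ± 0.62 and -2.01 (limma adjusted p = 8.64e-07). In both genes vehicle library 1 was below the PTH libraries. Klf2, a factor gene known for its response to flow, was at 179.8, 1226 and 1351 under vehicle and 253, 239 and 247 under PTH, with -1.44 ± 0.73 and -2.38, and the osteoblast factor gene Sp7 at 867, 6571 and 7629 under vehicle and 1303, 1016 and 1243 under PTH. Lpar3, a lysophosphatidic acid receptor gene, was at 63.5, 211 and 274 under vehicle and 69.9, 32.1 and 10.9 under PTH, with -2.36 ± 0.78 and -3.00. Chst15, a sulphotransferase gene for chondroitin sulphate, was at 263, 1297 and 1228 under vehicle and 364, 277 and 283 under PTH, with -1.29 ± 0.59 and -2.04. Mgp, the gene of a matrix protein that inhibits calcification, was the largest increase of the mineral list, at 172, 1590.2 and 1847 under vehicle and 9362, 8689 and 15451 under PTH (3.76 ± 0.86). Its change was 2.65 without vehicle library 1 (limma adjusted p = 0.000359) and 4.36 without vehicle library 3, and its call was lost on leaving out vehicle library 2 (4.25), and on leaving out PTH library 1, 2 or 3 (3.86, 3.91 and 3.50). Phospho1 and Chst15 were singled out after their values were seen. Why vehicle library 1 differs was not tested.

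**Figure D5:**
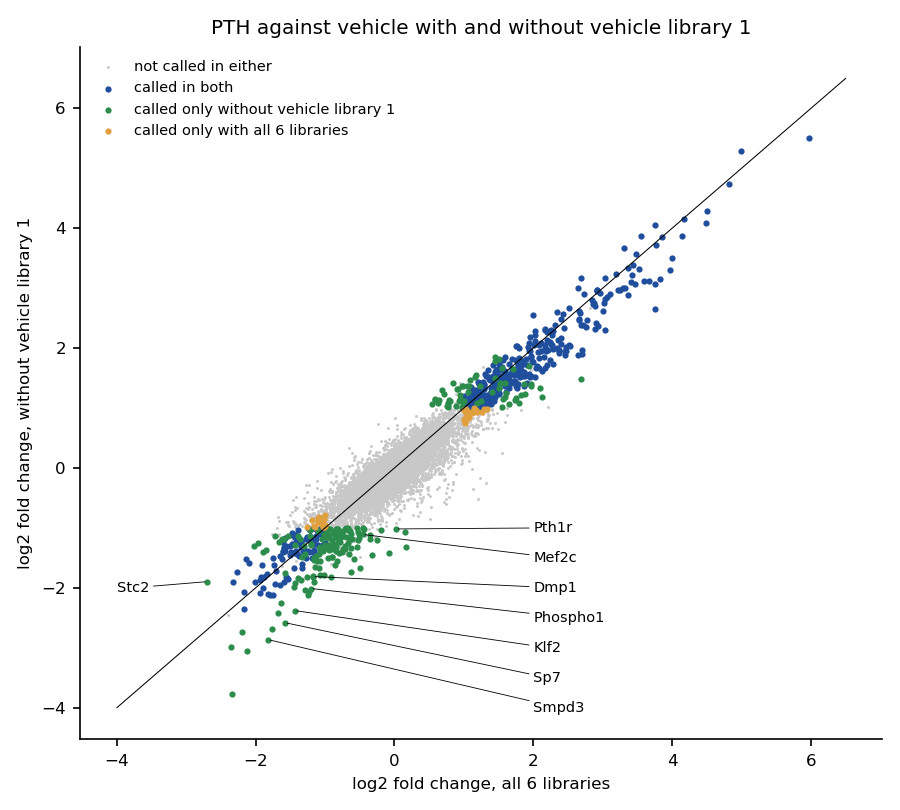
Each point is a gene, placed by its log2 fold change, PTH against vehicle, with all 6 libraries (x axis) and without vehicle library 1 (y axis), and the line marks equal values. The 411 blue genes were called in both, the 203 green genes only without that library and the 45 orange genes only with all 6, and bone genes such as Sp7, Smpd3 and Phospho1 lie below the line among the green.

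Some increases lay next to each other in the order of measured genes along the genome. In GRCm38 coordinates of the GENCODE annotation, 11377 genes had a position, and in 42 pairs of neighbouring measured genes both were called, 36 pairs in the same direction and 6 in opposite directions. Of all called genes 73.9% rose, and how many pairs would share a direction at that share was not computed. In 12 pairs both genes were stable calls, and in those 12 both rose, while 174 of all 200 stable calls rose. Neighbours are next to each other among measured genes only. The gap was 651504 bases for Dusp10 with Hlx, and up to 3835146 bases among the 42 pairs. The genes of Smoc2 and Thbs2 lie on chromosome 17 between 14279506 and 14694235, with 260710 bases between them. Mapkapk3 and Cish lie on chromosome 9 between 107254927 and 107302784, with 6149 bases between them. Arhgef19 and Epha2 lie on chromosome 4 between 141239499 and 141329384, and Glis1 and Lrp8, a receptor gene of the LDL receptor family, between 107434591 and 107876840 on the same chromosome. Lrp8 was at 243, 482 and 377 under vehicle and 2841, 2890.2 and 2926 under PTH (3.03 ± 0.24). Ada, the gene of adenosine deaminase, and Ccn5, a matricellular gene, are neighbours on chromosome 2 between 163726584 and 163833146, at 1.94 and 3.24. The orphan receptor gene Nr4a2 and Gpd2 are neighbours on the same chromosome, with 113632 bases between them. The remaining pairs were Dusp10 with Hlx, Zfp52 with Zfp948, Ostf1 with Nmrk1, Slc28a1 with Pde8a, Mmp2 with Lpcat2, and Acsl3 with Utp14b, which overlap, so that their counts are uncertain. Gene pairs were singled out after their values were seen, and no expected number of such pairs was computed.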

How the data were processed

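Total RNA of Ocy454 cells was sequenced in the 6 libraries compared here, 3 vehicle and 3 PTH. Per the submitters' processing notes, FastQC 0.11.5 was the read check, Salmon quantified transcripts of mouse build GRCm38, and DESeq2 was the authors' test. Versions of those last tools, the annotation release, the strand setting and how genes were summed from transcripts are not given in the sources. The signal values deposited by the authors are normalised estimated counts, since all values of a library were whole multiples of 1 step (0.905 to 1.07) within 0.02 counts. The deposited log2 fold changes and adjusted p-values are the authors' own and were used only for a count of shared calls. Of 11783 rows with values, 8 named no gene, with at most 0.0209% of a library's counts, and were left out, and 1036792 rows held no values. The symbols are 11768 in number, as 6 of them stand in 13 rows.

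The test was limma 3.58.1 with statmod 1.5.0 in R 4.3.3, with a mean trend and robust moderation of the variance, on log2 of the value plus 1, so that changes of low genes are understated, with no covariate and Benjamini-Hochberg adjustment over 11775 genes. A gene was called when its adjusted p was below 0.05 and its log2 fold change was 1 or more in size. Whether libraries of a group are separate cultures is not in the labels, so the p-values reflect a spread among libraries that may be technical. With 3 libraries in a group an exact permutation test of 1 gene could not reach p below 0.05. The script was tested on simulated data. Tables were prepared with pandas 2.3.3 and numpy 2.4.6 under Python 3.11.15, and matplotlib 3.10.9 drew the figures.

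The 50 gene lists, 2113 measured genes in all, and the thresholds were chosen with earlier results of these data known. Named genes are the 30 largest increases and 30 largest decreases among called genes whose mean level was 100 or more, called members of the lists, with stable calls first, their ligands, receptors or antagonists, bone identity genes, and the largest changes called only without vehicle library 1. Some genes and 1 list that fall under it are not reported here. Genes outside this rule are marked as singled out after their values were seen. Lists are described by counts and medians with no set test. Counts at an unadjusted p below 0.05 were made for lists only, with no share of all genes beside them. The alternatives were leaving out each library, a pseudocount of 10, a minimum mean level of 100, scaling to the same total, a replicate block, plain limma variance and other thresholds. Whether replicate numbers pair the libraries is not known here, and the main test did not pair them.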

Additional observations from a re-analysis of the deposited data

How the results depend on the processing

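Leaving out 1 library gave 219 to 614 called genes, 185 to 375 higher and 34 to 239 lower, against 456, 337 and 119. The highest counts came without vehicle library 1 and the lowest without PTH library 3. At an adjusted p below 0.01 the counts were 261, 228 and 33, and with no minimum fold change they were 908, 631 and 277. A pseudocount of 10 gave 447 called genes, a mean level of at least 100 gave 437, plain variance 446 and the same total 468 (293 higher and 175 lower). The authors' deposited table holds 672 genes past the same thresholds, 415 higher and 257 lower, and 450 of the 456 are among them. Deviations of same-numbered libraries had correlations of -0.0304, -0.0478 and 0.0317, and a replicate block gave 403 called genes (315 higher and 88 lower). Vehicle library 1 makes up much of the vehicle deviations, so these correlations cannot settle whether the numbers pair libraries.

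Of 201 named genes that were called, none changed direction in these alternatives. Under the same total 14 no longer passed, with the replicate block 21, and without PTH library 1, 2 or 3 86, 84 and 97. Count tests with other tools were planned and were not run. Every value was a whole multiple of its library's step, but with no value listed under 11 steps the recovered counts did not pass the check for whole reads, so how such tests would call these genes is not known here. Genes with fewer than 11 estimated counts in any library are not listed, so genes switched on from near 0 are not analysed here.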
